A study of Homo sapiens with 35 samples.

Results

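A group of 8 type II cadherin genes that lie in or beside gene-poor stretches of human chromosomes 5 and 18 was followed through a single-cell map of contacts with the nuclear lamina. They were CDH18, CDH12, CDH10, CDH9 and CDH6 on chromosome 5, and CDH20, CDH7 and CDH19 on chromosome 18. Each gene was represented by the 100-kb bins that overlap its hg19 interval, which gave 34 bins, 27 on chromosome 5 and 7 on chromosome 18, of the 26584 bins with values. The genes were taken by name and position, and no value of the table chose their bins. They were, however, chosen with earlier results of these data known.

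The study used DamID, in which the bacterial Dam adenine methylase is fused to a protein, here LaminB1, and marks nearby DNA by methylating GATC sites. The cells were KBM7, a line from a human chronic myeloid leukaemia, here the single clone 5-5, labelled diploid (2N). Shield1 at 0.5 nM induced methylation over 15 h, after which single cells carrying both Fucci markers of the cell cycle were sorted from the smallest 2%. All 32 cells with data were of this 1 group, and no cells with another Dam construct or condition, and no RNA, were analysed here.

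Cadherins are calcium-dependent adhesion proteins whose outer domains bind cadherins on the neighbouring cell and whose tails bind catenins, which link them to actin. Type II members are known mainly from the developing nervous system, where combinations of them help to sort neurons and to match partners at synapses. CDH18, CDH12, CDH10 and CDH9 are known chiefly from the brain, CDH6 also from the kidney, CDH7 and CDH20 from the developing nervous system, and CDH19 from neural crest cells and Schwann cell precursors. The lamina lines the inner face of the nuclear envelope, and the domains that touch it are on the whole poor in genes and low in transcription.

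The genes' surroundings differ in RefSeq's GRCh38.p14 annotation, which was used here only for names, neighbours and promoters. No other protein-coding gene lay within 1 Mb of CDH18 or CDH9. CDH6 had none within 1 Mb on its left (towards lower coordinates) and 6 on its right, among them DROSHA, which encodes the nuclear enzyme that cuts microRNA precursors, and GOLPH3, a Golgi protein. CDH20 had 1 on its left, the melanocortin receptor gene MC4R, and 5 on its right, among them PIGN, of the pathway that makes GPI anchors, and TNFRSF11A, which encodes the receptor RANK. No protein-coding gene lay between CDH18 and CDH12, between CDH10 and CDH9 or between CDH7 and CDH19, whereas 20 lay between CDH20 and CDH7.

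DamID reads the genome only through GATC, so promoters are shown for CDH12 and CDH7, the 2 of the matched genes whose first promoter holds that site, and for CDH20, whose gene spans a change in lamina contact. They run from 250 bases before to 50 after the start of the gene, from RefSeq GRCh38.p14, 5′ to 3′ along the gene, with GATC in capitals. CDH12 lies on the minus strand (chr5:22853295-22853594), CDH7 on the plus strand (chr18:65750002-65750301) and CDH20 on the plus strand (chr18:61333180-61333479).
CDH12: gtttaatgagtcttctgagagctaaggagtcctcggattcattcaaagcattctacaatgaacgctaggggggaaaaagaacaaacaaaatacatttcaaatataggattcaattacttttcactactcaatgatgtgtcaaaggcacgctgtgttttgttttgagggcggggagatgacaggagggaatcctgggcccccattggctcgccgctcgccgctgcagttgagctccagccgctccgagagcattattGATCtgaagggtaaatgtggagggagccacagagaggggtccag
CDH7: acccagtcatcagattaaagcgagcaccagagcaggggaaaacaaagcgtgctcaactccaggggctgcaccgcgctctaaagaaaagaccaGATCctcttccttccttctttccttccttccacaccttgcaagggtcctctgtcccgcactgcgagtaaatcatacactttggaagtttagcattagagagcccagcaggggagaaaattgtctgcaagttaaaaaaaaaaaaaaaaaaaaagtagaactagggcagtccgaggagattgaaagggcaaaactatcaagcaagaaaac
CDH20: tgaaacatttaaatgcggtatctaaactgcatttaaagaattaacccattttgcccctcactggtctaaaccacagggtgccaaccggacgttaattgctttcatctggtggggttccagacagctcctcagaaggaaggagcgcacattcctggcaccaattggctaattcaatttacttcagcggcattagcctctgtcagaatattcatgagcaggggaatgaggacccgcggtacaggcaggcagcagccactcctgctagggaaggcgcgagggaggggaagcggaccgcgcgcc

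Promoters were found for 7 of the 8 genes, 12 in all. GATC, which reads the same on both strands, was present in 16.7% of these 12 promoters, against 41.7% of all 35116 promoters in the table. Their median GC content was 48.3%, against 58.7% for all promoters, and the median number of CpG pairs was 8.5, against 14. A second promoter of CDH7 stood apart with 78.3% GC and 41 CpG pairs. These are counts of letters. At 100 kb, the contact values below do not resolve promoters.

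Each value of the table is OE, the observed over expected reads of a bin in 1 cell, and a bin was counted as in contact in a cell where OE was 1 or more. In a diploid cell, 1 copy in contact at some time during the 15 h is enough for such a count. The contact frequency of a gene is the percentage of its bins in contact in a cell, averaged over cells. The cells held 985 to 258225 reads (median 120164). Cells 13, 15 and 17 had only 985, 1221 and 1755 reads, so that 1 read gave an OE of 13.7 to 24.9 in the median bin and any read counted as a contact, and 3.51 to 5.99% of their bins were in contact. Values are therefore also given for the other 29 cells, called the deeper cells here, which had 40279 to 258225 reads and 28.6% ± 3.99 of their bins in contact (SD, n = 29). The labels do not say that the cells came from separate cultures, so p-values measure the spread between these cells.

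In each gene except CDH20, most bins were in contact with the lamina in more cells than the cells' contact shares give. In CDH20 this held for the first of 3 bins. Of the 34 bins, 31 were called higher (91.2%), against 30.3% of all 26584 bins (exact two-sided Poisson-binomial test, Benjamini-Hochberg adjusted p under 0.05). The last bin of CDH20 was called lower, as were 54.5% of all bins. The bins without a call were the last bin of CDH6 and the middle bin of CDH20. The median bin of the genes was in contact in 75% of cells, against 6.25% of cells for the median bin of the genome. A call of higher needed 15 of 32 cells, and 8.42 cells per bin would follow from the contact shares alone.

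On the chromosomes of these genes, the share of bins called higher also exceeded the 30.3% of the genome. On chromosome 5, 26 of the 27 bins of CDH18, CDH12, CDH10, CDH9 and CDH6 were called higher, against 40.7% of the 1766 bins of that chromosome. On chromosome 18, 5 of the 7 bins of CDH20, CDH7 and CDH19 were called higher, against 38.3% of 751 bins. Over their bins together, the chromosome 5 genes were in contact at 74.8% ± 25.9, against 33.9% ± 10.9 for the other bins of chromosome 5 (SD, n = 32). The chromosome 18 genes were in contact at 60.3% ± 29.4, against 32.3% ± 12.7 for the other bins of chromosome 18 (SD, n = 32).

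**Figure D1:**
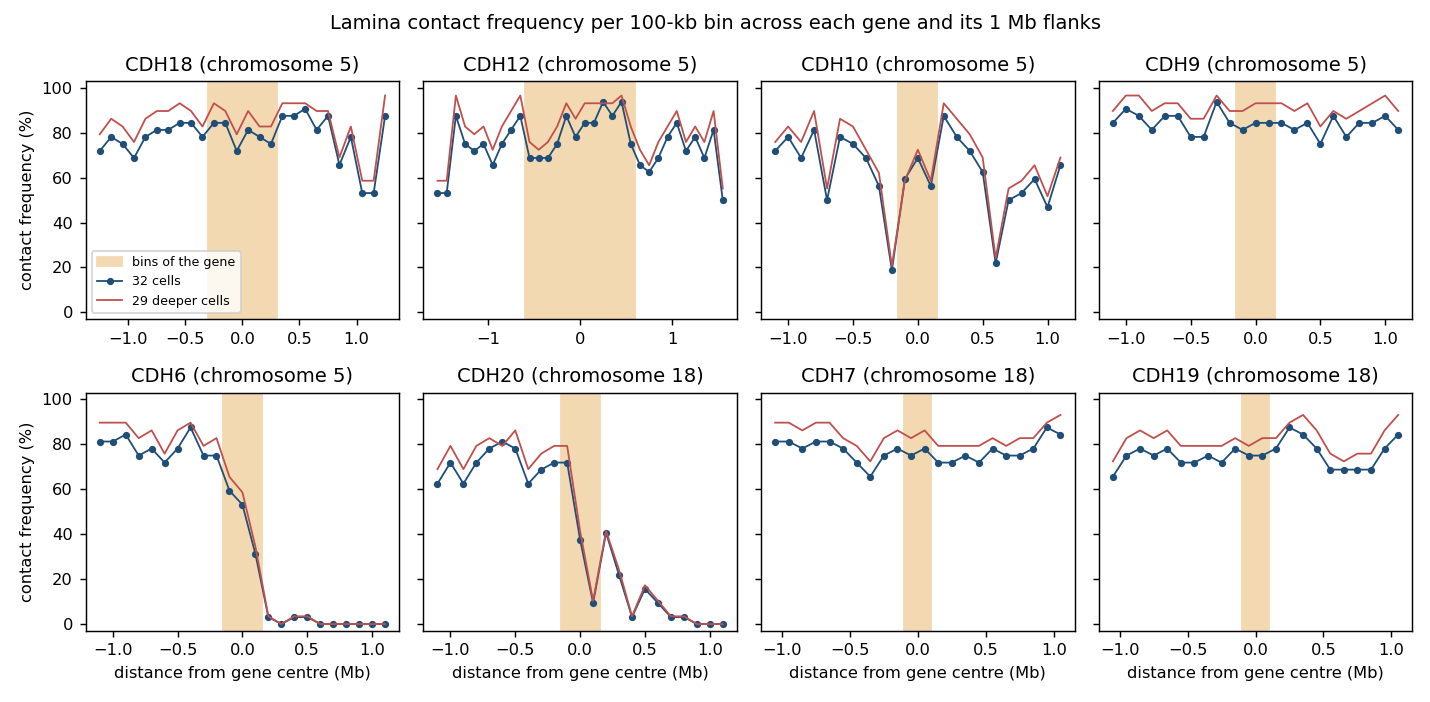
Contact frequency (% of cells, y axis) of 100-kb bins against distance from the centre of each cadherin gene (Mb, x axis), with the gene's bins shaded, the 32 cells in blue and the 29 deeper cells in red. CDH18, CDH12, CDH9, CDH7 and CDH19 lie inside broad high stretches, CDH10 between a pair of narrow dips, and CDH6 and CDH20 on a fall to low values towards the right.

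CDH9, a cadherin that in mice takes part in forming hippocampal synapses, had the highest contact frequency at OE 1, 83.3% ± 32.8 (SD, n = 32) and 92.0% ± 19.2 in the deeper cells (SD, n = 29). Its 3 bins (26800001 to 27100000) were in contact in 26, 27 and 27 of the 32 cells. In the deeper cells its mean OE ran from 0.677 in cell 11 over a median of 3.19 to 6.57 in cell 27. All of its bins were in contact in 24 deeper cells and some of them in the other 5. CDH9 was thus in contact, at least in part, in each of the 29 deeper cells, as were CDH12 and CDH18. With 12 and 6 bins, against 3 for CDH9, CDH12 and CDH18 had more bins in which a contact could fall.

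CDH12, the longest of the genes in this table with 12 bins (21700001 to 22900000), followed with 80.5% ± 26.7 (SD, n = 32) and 86.5% ± 19.6 in the deeper cells (SD, n = 29). Its bins at 22500001 to 22600000 and at 22700001 to 22800000 were in contact in 30 cells each, and its lowest bins, the first 3 of the gene at 21700001 to 22000000, in 22 cells each. The part of CDH12 with higher coordinates, where the gene starts on the minus strand, therefore held its highest bins, although its last bin was in contact in 24 cells. Mean OE ran from 0.857 in cell 34 over a median of 2.90 to 6.33 in cell 2. In cell 34 CDH18 was also at its lowest, at 0.513, and in cell 2 it was at its highest, at 5.53.

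CDH18, the chromosome 5 gene with the lowest coordinates (6 bins, 19400001 to 20000000), was in contact at 79.2% ± 32.8 (SD, n = 32) and at 86.2% ± 25.2 in the deeper cells (SD, n = 29). Its highest bins, at 19400001 to 19500000 and 19500001 to 19600000, were in contact in 27 cells each and its lowest, at 19600001 to 19700000, in 23. The median OE over deeper cells was 2.94. The RefSeq gene reaches beyond the interval used here, so the values describe only the part inside it. Its first listed promoter, on the minus strand, lies at 20575664 to 20575963 in GRCh38, to the right of its others. Bins of the right flank used here may therefore lie within the gene.

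CDH7 (2 bins, 63400001 to 63600000) was in contact at 76.6% ± 42.1 (SD, n = 32) and at 84.5% ± 35.6 in the deeper cells (SD, n = 29). Its SD was the widest of the 8 genes over the 32 cells, but in the deeper cells those of CDH10 (40.2) and CDH6 (39.4) were wider. CDH7 was close to all or none: in the deeper cells both bins were in contact in 24, 1 bin in 1 and neither in 4. Those 4 were cells 5, 10, 23 and 26, and its OE over deeper cells ran from 0.397 in cell 23 over a median of 2.83 to 6.22 in cell 11. CDH19, 0.5 Mb to its right (2 bins, 64100001 to 64300000), was in contact at 75.0% ± 35.9 (SD, n = 32), with both bins in 20 deeper cells, 1 bin in 7 and neither in 2, which were cells 5 and 10. Its OE ran from a value of 0 in cell 10 over a median of 2.57 to 6.17 in cell 35.

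CDH10 (3 bins, 24400001 to 24700000) had a lower mean than CDH12 and CDH9 on either side of it, differences that were not tested, at 61.5% ± 38.9 (SD, n = 32) and 63.2% ± 40.2 in the deeper cells (SD, n = 29). Its bins were in contact in 19, 22 and 18 cells, and its OE ran from 0.236 in cell 32 over a median of 1.39 to 5.41 in cell 3. In the deeper cells all 3 bins were in contact in 13, some in 10 and none in 6. CDH10 sat in a short stretch of its own: the bin just before it (24300001 to 24400000) was in contact in 6 cells, and the bin 0.4 Mb after it (25100001 to 25200000) in 7. These dips had 0.777 and 0.742 times the expected reads of the median bin, and the part of expected reads in them was not tested.

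CDH6 (3 bins, 31100001 to 31400000) was in contact at 47.9% ± 40.5 (SD, n = 32) and 52.9% ± 39.4 in the deeper cells (SD, n = 29). CDH20 (3 bins, 59000001 to 59300000) had the lowest mean, 39.6% ± 29.9 (SD, n = 32) and 43.7% ± 28.3 in the deeper cells (SD, n = 29). Its place below CDH6 rests on the choice of bins, since its start is given here as a rounded position: with the bin that touches its start included it was at 47.7%, against 47.9% for CDH6. With bins wholly inside the intervals it was at 54.7%, against 53.1% for CDH6. OE in the deeper cells ran from 0.175 in cell 11 over a median of 1.48 to 3.79 in cell 30 for CDH6. For CDH20 it ran from a value of 0 in cell 2 over a median of 1.26 to 3.51 in cell 35. All 3 bins of CDH20 were in contact in 1 deeper cell, cell 24, whereas some were in 22.

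**Figure D2:**
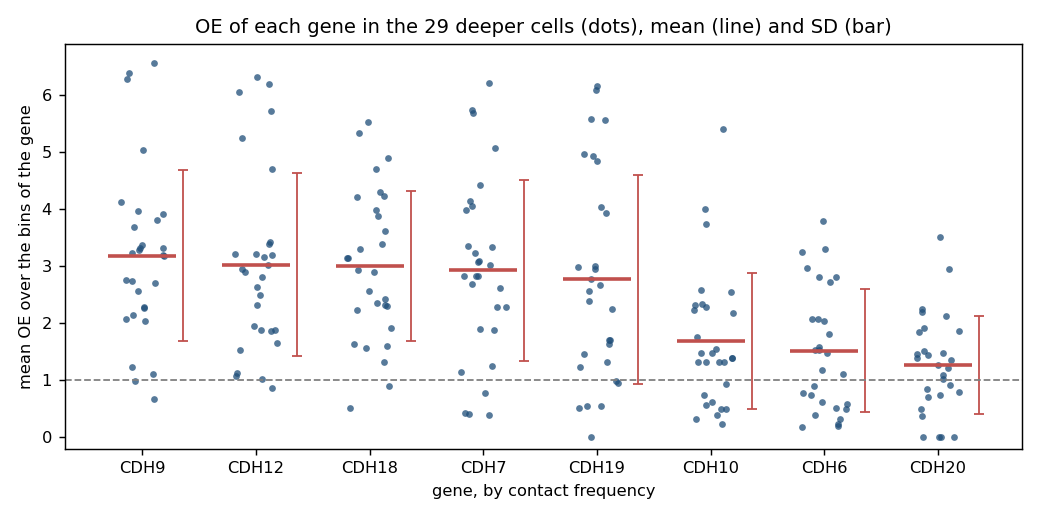
Mean OE over the bins of each cadherin gene (y axis, ratio of observed to expected reads) in each of the 29 deeper cells (points), with the mean (line), the SD (bar) and the contact limit of OE 1 (dashed). Means were 3.18 for CDH9, 3.03 for CDH12, 3.01 for CDH18, 2.93 for CDH7 and 2.77 for CDH19, and lower for CDH10 (1.68), CDH6 (1.52) and CDH20 (1.27).

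The order by contact frequency was CDH9, CDH12, CDH18, CDH7, CDH19, CDH10, CDH6, CDH20, and at OE 1 no step of it exceeded the spread between cells. Over the 7 pairs of neighbours in this order, unadjusted p-values of a two-sided sign-flip permutation test over cells (100000 resamples) were 0.155 or higher. The steps among the first 5 genes were 1.30 to 2.86 points. CDH19 exceeded CDH10 by 13.5 ± 50.3 points (95% interval -4.61 to 31.7, p = 0.155), and CDH10 exceeded CDH6 by 13.5 ± 49.3 points (-4.22 to 31.3, p = 0.162). CDH6 exceeded CDH20 by 8.33 ± 36.9 points (-4.97 to 21.6, p = 0.273). With an OE limit of 2, CDH19 exceeded CDH10 by 24.0 points (unadjusted permutation p = 0.0225), and with a limit of 0.5 CDH10 exceeded CDH6 by 14.6 points (unadjusted permutation p = 0.0416). The top of the order moved as well: CDH12 led at a limit of 0.5 (87.8%, against 87.5% for CDH9) and CDH18 with any read counted (90.6%, against 89.6% for CDH9). The intervals at OE 1 leave room for differences of over 20 points in either of the last 3 steps, so the test does not show that neighbours are alike.

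Against the other bins of its chromosome in the same cell, CDH12 was higher in 32 of 32 cells, by 46.2 points. CDH18 was higher in 30 cells and CDH9 in 29, by 44.8 and 48.9 points. CDH19 was higher in 28 cells, CDH7 in 25 and CDH10 in 23, by 42.6, 44.1 and 26.9 points. For CDH20 the gap was 7.08 points and held in 20 cells, and for CDH6 it was 13.4 points and held in 17. The correlation (Pearson's r, 29 deeper cells) between a gene's contact frequency and log10 reads was 0.429 for CDH20, 0.425 for CDH19 and 0.384 for CDH12. It was between 0.0202 and 0.245 for the other 5, and differences in r between genes were not tested. The median number of reads over a gene in a deeper cell ran from 17 for CDH20 to 206 for CDH12, so the small genes rest on few reads per cell.

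To place each gene in its surroundings, it was set against its 1 Mb flanks, 10 bins on each side, in the same cell. The same sign-flip test was run on every window of the same number of bins in the genome, and p-values were adjusted over all of those windows. CDH12 was the only gene called, and it was higher than its flanks: 80.5% ± 26.7 in the gene against 71.7% ± 28.4 in the flanks (SD, n = 32), a difference of 8.75 ± 12.9 points (SD; 95% interval 4.08 to 13.4, adjusted p = 0.000968 by permutation). It was higher in 27 cells, lower in 2 and equal in 3. Such a call is common, since 28.0% of the 24297 windows of 12 bins were called higher than their flanks and 61.8% were called in either direction. Comparisons with each flank apart, here and below, were added after seeing the data. CDH12 also exceeded its left flank by 7.97 points (adjusted p = 0.0328; 28.8% of windows called higher) and its right flank by 9.53 points (adjusted p = 0.0109; 29.0% of windows called higher), both by permutation. Without the 3 shallow cells the difference from both flanks was 8.22 points (adjusted p = 0.00432), and that from the left flank was 6.49 points with an adjusted p of 0.108. Thinned to 40279 reads, the deeper cells gave 15.1 points against both flanks (adjusted p = 0.000762) and 18.9 points against the left flank (adjusted p = 0.000509), both by permutation. With a contact limit of OE 2, the difference from both flanks was 6.46 points with an adjusted p of 0.0720 by permutation.

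CDH12's own bins and flanks hold several bins with low expected reads, where the ratio moves in coarse steps. Bins at 21900001 to 22000000 and 22100001 to 22200000 in the gene had 0.424 and 0.287 times the expected reads of the median bin, and 3 bins of the left flank had 0.0637 to 0.134 times. With all such bins left out, CDH12 was still higher than its flanks, by 6.67 points (adjusted p = 0.00973 by permutation).

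CDH18, CDH9, CDH7 and CDH19 were level with their surroundings within the spread between cells, although the right flank of CDH18 may hold part of its RefSeq gene. The right flank of CDH7 holds the bins of CDH19, and the left flank of CDH19 those of CDH7. With those bins left out, gene minus flanks was -0.694 points for CDH7 and -0.174 points for CDH19. CDH18 was 1.51 points above its flanks (95% interval -4.71 to 7.74, adjusted p = 0.793), and the difference of gene minus flanks was -0.729 points for CDH9 (-6.41 to 4.95), -0.469 points for CDH7 (-8.43 to 7.49) and -0.313 points for CDH19 (-6.03 to 5.41), the last 3 with an adjusted p of 1 by permutation. For CDH10, whose flanks hold the dips, the difference was -0.729 points (-11.8 to 10.3, adjusted p = 1 by permutation). Against both flanks together, the difference was 8.07 points for CDH6 and -0.729 points for CDH20 (adjusted p = 0.293 and 1 by permutation), and the 2 flanks of each of these genes were unlike each other. Several of these values depended on the settings. With an OE limit of 0.5 the CDH6 difference was 19.4 points (adjusted p = 0.00179), with any read counted that of CDH10 was 7.55 points (adjusted p = 0.0198), and with 2 Mb flanks that of CDH9 was 6.46 points (adjusted p = 0.0417), all by permutation. For CDH20 the called differences ran both ways, at -9.90 points with an OE limit of 2 (adjusted p = 0.0226), 9.82 points with 2 Mb flanks (adjusted p = 0.0247) and 14.4 points with bins wholly inside its interval (adjusted p = 0.0329), all by permutation. Among all windows, 56.2% of those of 6 bins (the width of CDH18), 50.6% of those of 3 bins and 47.3% of those of 2 bins were called in either direction. CDH18 was 11.6 points above its flanks with the deeper cells thinned to 40279 reads each (adjusted p = 0.00269), and 5.00 points above them with any read counted (adjusted p = 0.00303), both by permutation. The difference was -1.22 points with bins of low expected reads left out (adjusted p = 0.928) and -5.21 points with 0.5 Mb flanks (adjusted p = 0.151), both by permutation. Its right flank holds bins with 0.0637 and 0.108 times the expected reads of the median bin, whose part in these changes was not tested.

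**Figure D3:**
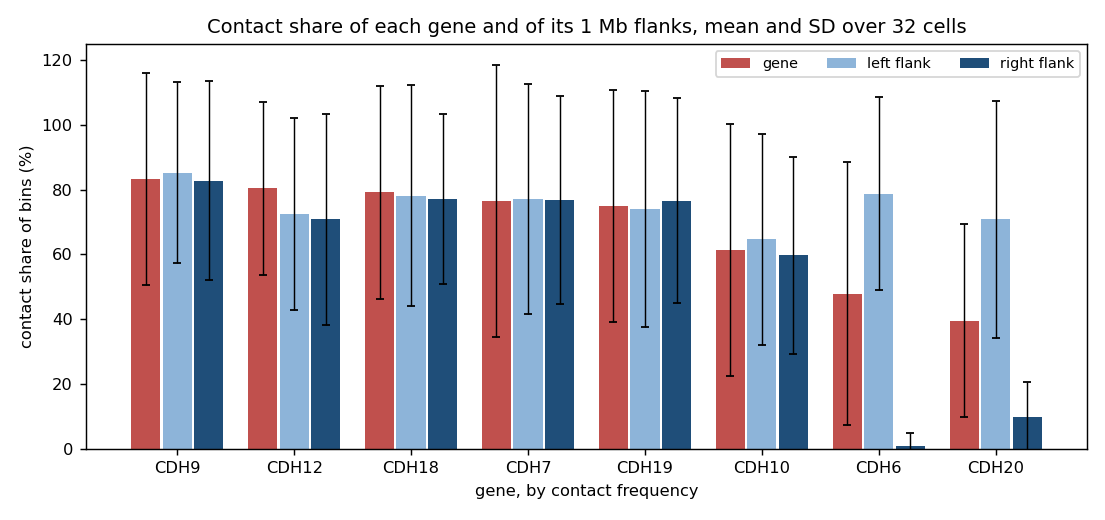
Contact frequency (%, y axis) of each cadherin gene, its left 1 Mb flank and its right 1 Mb flank (bars, mean over 32 cells; error bars, SD over cells), genes in order of frequency. The left and right bars are far apart only for CDH6 (78.8 and 0.938%) and CDH20 (70.9 and 9.69%).

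CDH6 lay on a border between a stretch with frequent contact on its left and one with almost none on its right. It was in contact at 47.9% ± 40.5, its left flank at 78.8% ± 29.8 and its right flank at 0.938% ± 3.90 (SD, n = 32). The comparisons with each flank apart were added after seeing the data, so their p-values are no independent support for a border. CDH6 minus its left flank was -30.8 ± 34.4 points (lower in 23 cells, higher in 2; adjusted p = 8.76e-05 by permutation; 22.9% of windows called lower). It was 47.0 ± 39.5 points above its right flank (higher in 22 cells, lower in none; adjusted p = 4.91e-05 by permutation; 20.9% of windows called higher). The left flank exceeded the right in all 32 cells, by 77.8 ± 29.4 points (95% interval 67.2 to 88.4, adjusted p = 3.01e-05 by permutation; 28.6% of windows called higher).

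Within CDH6 the fall went step by step. Its bins were in contact in 19, 17 and 10 cells (adjusted p = 0.000169, 0.00236 and 0.670 by the Poisson-binomial test), and their mean OE in the deeper cells was 2.19, 1.46 and 0.910. The next bin to the right (31400001 to 31500000) was in contact in 1 cell, with a mean OE of 0.165, and no bin of the right flank was in contact in more than 1 cell. Expected reads in the gene were near those of the median bin, 1.07 to 1.18 times. Going right from the left flank, the last bin in contact lay inside CDH6 in 20 of the 29 deeper cells, before it in 7 and after it in 2. All 3 bins were in contact in 9 deeper cells, the first 2 in 6 and the first alone in 4. The middle bin alone was in contact in 2, the last alone in 1 and none in 7. The place where contact ended thus differed between cells.

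CDH20 lay on a like border on chromosome 18, with a less sharp right side. It was in contact at 39.6% ± 29.9, its left flank at 70.9% ± 36.6 and its right flank at 9.69% ± 10.9 (SD, n = 32). The gene minus its left flank was -31.4 ± 28.3 points (lower in 27 cells, higher in 3; adjusted p = 4.89e-05 by permutation). It was 29.9 ± 26.6 points above its right flank (higher in 23 cells, lower in 2; adjusted p = 4.91e-05 by permutation). The left flank exceeded the right by 61.3 ± 32.8 points (95% interval 49.4 to 73.1, higher in 30 cells and equal in 2; adjusted p = 3.01e-05 by permutation). The shares of windows called are those given for CDH6, which has the same width. As for CDH6, these comparisons were added after seeing the data.

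The bins of CDH20 were in contact in 23, 12 and 3 cells, with a mean OE in the deeper cells of 2.35, 1.02 and 0.437. The first was called higher (adjusted p = 4.9e-07), the middle one was not called (adjusted p = 0.237) and the last was called lower (adjusted p = 0.0375), all by the Poisson-binomial test. Contact did not end with the gene: the next 2 bins (59300001 to 59500000) were in contact in 13 and 7 cells, more than the last bin of the gene. In the deeper cells the last contacted bin lay inside CDH20 in 7 and after it in 17. The other 5 had no contact in the gene or its right flank, and among these cell 23 had none in the left flank either. The pattern of its 3 bins was contact in the first and middle bins in 11 cells, in the first alone in 9, in the first and last in 2, in all in 1 and in none in 6. CDH20 lies on the plus strand and starts at its left end, so its start is in the bins with more contact.

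For the 5 genes CDH18, CDH10, CDH9, CDH7 and CDH19, no comparison with the left flank, the right flank or between the flanks was called. Their left and right flanks differed by -2.50 to 5.00 points, with an adjusted p of 0.409 or higher by permutation, and CDH12's flanks by 1.56 points (adjusted p = 0.944). Windows of 2, 3, 6 and 12 bins were called in either direction at 40.0, 43.4, 49.7 and 57.3% against the left flank. Against the right flank they were called at 40.0, 43.7, 49.7 and 57.4%, and between the flanks at 56.2, 57.1, 59.3 and 63.0%. At a contact limit of OE 2, CDH10's left flank exceeded its right by 15.0 points (adjusted p = 0.00293 by permutation).

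The regions between the genes continued this picture. All 17 bins between CDH18 and CDH12 were called higher, with a mean frequency of 76.7%, as were all 40 bins between CDH9 and CDH6 (80.9%) and all 5 between CDH7 and CDH19 (73.8%). The bins just right of the CDH18 interval may hold part of its RefSeq gene, which reaches beyond that interval. Between CDH12 and CDH10 14 of 15 bins were called higher (67.1%), and between CDH10 and CDH9 20 of 21 (72.5%). The bins not called are the dips beside CDH10. Between CDH20 and CDH7, where RefSeq lists 20 protein-coding genes, 20 of 41 bins were called higher and 16 lower, and 11 were in contact in no cell.

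Unbroken stretches whose bins each had 16 or more of the 32 cells in contact joined some of the genes. CDH18 and CDH12 shared a stretch of 6.7 Mb (17600001 to 24300000). CDH9 and the first 2 bins of CDH6 shared one of 5.7 Mb (25600001 to 31300000), and CDH7 and CDH19 shared one of 4.6 Mb (61700001 to 66300000). CDH10 had a stretch of 0.7 Mb to itself (24400001 to 25100000). The stretch of 1.4 Mb at CDH20 (57700001 to 59100000) ended in its first bin.

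In single deeper cells the contacted runs were shorter than these stretches for most genes. The longest run over CDH9 had a median length of 2.7 Mb (range 0.2 to 6.8), that over CDH18 2.6 Mb (0.1 to 7.5) and that over CDH12 2.4 Mb (0.3 to 7.5). An unbroken run reached from CDH18 into CDH12 in 4 of 29 cells, and from CDH9 into CDH6 in 8. Between CDH18 and CDH12, the bins starting at 20700001, 20800001 and 21300001 had 0.0637, 0.108 and 0.134 times the expected reads of the median bin. Those bins were in contact in 17, 17 and 21 of the 29 deeper cells. How far such low expected reads broke or shortened the runs over CDH18 and CDH12 was not tested. Runs over CDH7 and over CDH19 had medians of 3.1 Mb each, and the same run reached both genes in 18 cells. The run over CDH10 was short, 0.7 Mb at the median, though it reached 7.5 Mb in the longest case, and that over CDH20 never exceeded 1.9 Mb. The 22 deeper cells that had a contact in CDH6 had runs of 2.75 Mb at the median.

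**Figure D4:**
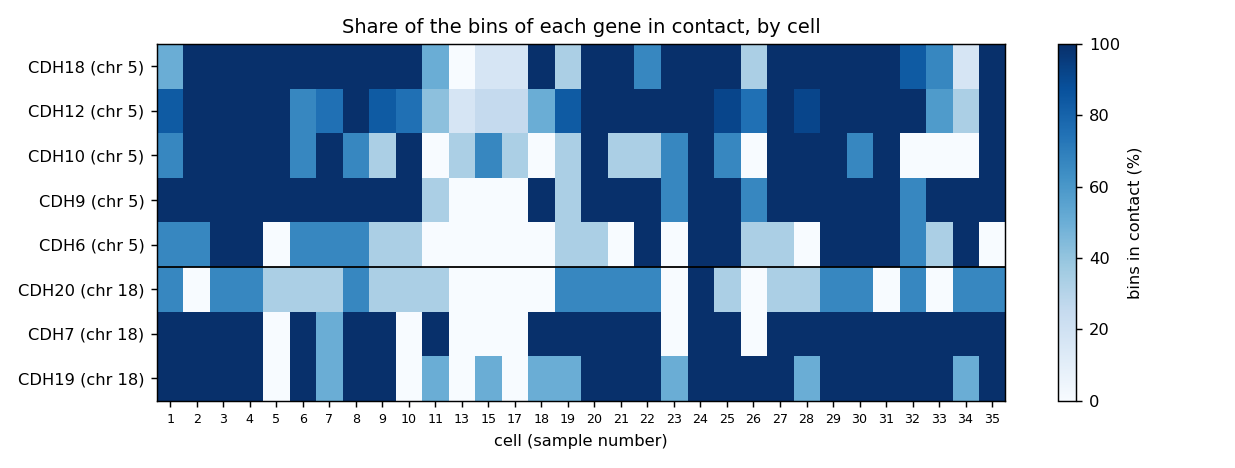
Percentage of each cadherin gene's bins in contact (colour) in each of the 32 cells (columns), genes in rows. CDH18, CDH12, CDH9, CDH7 and CDH19 are full in most of the deeper cells, and CDH20 is mostly partial. CDH6 is full in 9 deeper cells, partial in 13 and empty in 7. Cells 13, 15 and 17 are mostly empty.

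Taking a gene as in contact in a cell where at least 50% of its bins were, all 8 genes were in contact in 7 of the 29 deeper cells, 7 genes in 9 cells and 3 genes, the lowest number, in 2 cells. The 2 cells with 3 genes were cell 11, with CDH18, CDH7 and CDH19, and cell 26, with CDH12, CDH9 and CDH19. All 5 chromosome 5 genes were in contact together in 12 deeper cells, and all 3 chromosome 18 genes in 14. CDH10 was in contact in 19 deeper cells, and CDH18, CDH12 and CDH9 were in contact in each of those. CDH6 was in contact in 15, in each of which CDH9, CDH7 and CDH19 were too, and CDH20 in 14, in each of which CDH7 and CDH19 were. With CDH9 in contact in 27 deeper cells and CDH7 in 25, such overlaps leave little room to differ.

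The likeness of genes over cells is given as Pearson's r of contact frequency over the 29 deeper cells. All genes of a cell share its library and depth, and genes of 1 chromosome share its copies. The gene most like CDH18 was CDH10 (r = 0.656, 4.4 Mb apart), as it was for CDH12 (r = 0.632, 1.5 Mb apart). For CDH10 it was CDH18, and for CDH9 it was also CDH18 (r = 0.540). CDH7 and CDH19 were each other's most like (r = 0.612, 0.5 Mb apart), and CDH20's was CDH7 (r = 0.401). CDH6 was most like CDH19, on the other chromosome (r = 0.460), and its r with CDH18, on its own, was -0.0186. The 10 pairs on chromosome 5 had a median r of 0.398 (-0.0186 to 0.656), the 3 on chromosome 18 of 0.401 (0.231 to 0.612) and the 15 between chromosomes of 0.159 (-0.0803 to 0.460). With the 3 shallow cells included, which are low for nearly all genes at once, the medians were 0.512, 0.548 and 0.434.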

How the data were processed

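Values are ratios deposited by the authors, observed over expected (OE) reads of a 100-kb bin in 1 cell per the file headers. Tools named in the submitters' processing notes are cutadapt and Bowtie2 2.1.0, with build hg19. How the expectation was made, and any read filters or duplicate removal, is not given in the sources used here. Without values from unfused Dam, accessibility and mappability remain as far as that expectation leaves them. Of 35 labelled samples, 32 matched a column by number, and samples 12, 14 and 16 were not analysed here. Bins without a value (3792 of 30376) were left out. Positions are hg19 unless given as GRCh38.

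Within a bin, deposited ratios were whole multiples of 1 read's value, so whole reads were recovered: at a tolerance of 0.0001 reads, 100% of values were whole. Reads after PCR without molecular identifiers are not independent molecules.

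A contact is an OE of 1 or more. The number of cells in contact at each bin was set against the cells' contact shares by an exact Poisson-binomial test (two-sided), with Benjamini-Hochberg adjustment over 26584 bins. Genes were compared with 1 Mb flanks by two-sided sign-flip permutation over cells (100000 resamples), adjusted over all windows of that width; flanks taken apart were added after seeing the data. The 95% intervals use the SD over cells. The tests were checked on simulated contacts drawn independently for each bin, so the check does not cover runs of contact along a chromosome. Alternatives changed the contact limit, the cells, the depth, the bins, the flanks, the chance level and the test. The genes and lists were chosen with earlier results of these data known. All 8 genes are named whatever their values, with the highest and lowest bin of genes with over 2 bins, and for each gene the most like of the other 7. Other cadherins were not analysed here. Python 3.11.15, numpy 2.4.6, scipy 1.17.1 and pandas 2.3.3 were used.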

Additional observations from a re-analysis of the deposited data

How the results depend on the processing

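Of 331 values recomputed under alternatives, 306 kept their call or moved by less than the spread, although some differences without a call changed sign. The number of bins of the 8 genes called higher was 29 to 33 under the 8 alternatives it was counted for, which leave out the bins wholly inside, and CDH6 and CDH20 stayed below their left flank and above their right flank under each OE limit, without the shallow cells and with thinning. All values below are points with adjusted p by permutation, and the causes of the changes were not tested.

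With a limit of OE 0.5, CDH6 exceeded both flanks by 19.4 (0.00179) and CDH10 exceeded CDH6 by 14.6 (unadjusted p = 0.0416). With a limit of OE 2, CDH12 exceeded both flanks by 6.46 (0.0720), its left by 6.77 (0.234) and its right by 6.15 (0.127). At that limit CDH20 minus both flanks was -9.90 (0.0226), CDH10 minus its left flank -14.9 (0.0392), CDH10's left flank minus its right 15.0 (0.00293) and CDH19 minus CDH10 24.0 (unadjusted p = 0.0225). With any read counted, CDH18 exceeded both flanks by 5.00 (0.00303), its left by 4.38 (0.00872) and its right by 5.63 (0.0393). CDH6 then exceeded both flanks by 27.0 (5.63e-05), CDH10 both flanks by 7.55 (0.0198, against -0.729 at OE 1) and its right flank by 10.2 (0.000505), CDH12 its right flank by 2.66 (0.182), CDH12's left flank minus its right was -6.56 (0.0111), and CDH20's frequency was 69.8%. Without the shallow cells CDH12 exceeded its left flank by 6.49 (0.108). Thinned, CDH18 exceeded both flanks by 11.6 (0.00269), its left by 8.85 (0.0142) and its right by 14.4 (0.00923). With 2 Mb flanks, CDH9 exceeded them by 6.46 (0.0417) and CDH20 by 9.82 (0.0247), both at -0.729 with 1 Mb flanks. With bins wholly inside the interval, of which CDH7 and CDH19 have none, CDH20 exceeded both flanks by 14.4 (0.0329).

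Depth limits single values, since 1 read moves OE by up to 0.605 in the median bin of a deeper cell. Genes and flanks were compared within the same cell. Beyond that pairing by cell, samples could not be paired, because they form 1 group with no second group to share replicate numbers.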
